A study of Mus musculus with 6 samples.

Results

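Transcripts of 10 amino acid transporter genes were followed in mouse basal cell carcinoma (BCC) with and without Yap. The genes were Slc7a5, Slc3a2, Slc1a5, Slc38a1, Slc38a2, Slc7a1, Slc7a2, Slc7a6, Slc7a11 and Slc1a3, chosen by name because Slc7a5, Slc38a1 and others are reported targets of YAP. All 10 were present among the 23337 genes of the deposited table, and 9 were abundant enough to be tested. The libraries came from tumour cells of ear epidermis taken 6 weeks after tamoxifen, which had been given to mice at 4 weeks of age. All mice carried R26-SmoM2/+, a constitutively active Smoothened that switches on Hedgehog signalling, and K14CreER, a tamoxifen-inducible Cre driven by the keratin 14 promoter of basal keratinocytes. The wild-type group (3 libraries) had no further allele and the knockout group (3 libraries) also carried Yapfl/fl, so that Smoothened activation and Cre were common to both groups. Cells that the keratin 14 promoter does not reach keep Yap in this model, and whether a library stands for one animal or a pool was not given.

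Amino acid transporters move amino acids across membranes down or against their gradients, and tumours use them to feed protein synthesis, the mTORC1 growth pathway and glutathione production. Slc3a2 encodes the heavy chain CD98, a partner without transport activity of its own, which carries light chains of the Slc7 family to the cell surface. YAP is a transcriptional co-activator that is held back by the Hippo kinases and reaches DNA through TEAD factors, and Slc7a5 is among the genes through which it has been linked to leucine uptake and mTORC1.

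Recovered reads ran from 15405490 to 25260431 per library. Yap1 stood at 5765, 6004 and 5573 normalized counts in the wild-type libraries 1 to 3 and at 591, 773 and 1764 in the knockout libraries 1 to 3. All knockout libraries were below all wild-type ones, and library 3 was the highest of the knockout libraries. By replicate number the log2 differences of Yap1 were -3.28, -2.96 and -1.66, so the fall in counts was smallest in replicate 3. Genotype differences over all 6 libraries include this smaller fall. The counts cover the whole gene. Reads left from a recombined allele and reads from cells that keep Yap cannot be told apart in them. The sample codes began with DM22 for replicates 1 and 2 and with DM24 for replicate 3 of each genotype. Xist stood at 8.62 to 15.1 in the 4 DM22 libraries and at 58654 to 59594 in the 2 DM24 libraries, and Ddx3y, a Y-linked gene, at 3202 to 3426 and at 0. The DM24 libraries were also the shallower ones. Sex, depth and whatever else the codes mark cannot be told apart, so the members are given below by genotype and by code. The 6 basal keratinocyte markers (Krt5, Krt14, Krt15, Trp63, Itga6 and Col17a1) summed to 468834 to 675125 normalized counts.

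Per length, Slc38a2 was the most abundant member, and the 10 genes spanned more than 4 orders of magnitude. As normalized counts per kb of exon, averaged over the 6 libraries, the levels were 3621 for Slc38a2, 1363 for Slc3a2, 789 for Slc7a5, 749 for Slc7a6, 599 for Slc7a2, 439 for Slc1a5, 341 for Slc7a1, 11.1 for Slc7a11, 3.87 for Slc1a3 and 0.280 for Slc38a1. The range of Slc38a2 (2021 to 5091) lay above that of Slc3a2 (1288 to 1511), which lay above that of Slc7a5 (623 to 941). From Slc7a5 down to Slc7a1 each gene overlapped its neighbour in this order. Slc7a1 (266 to 451) and Slc7a11 (1.72 to 32.6) did not overlap. Slc38a2 alone held 31.1% to 58.8% of the summed per-kb level of the 10 genes.

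**Figure D1:**
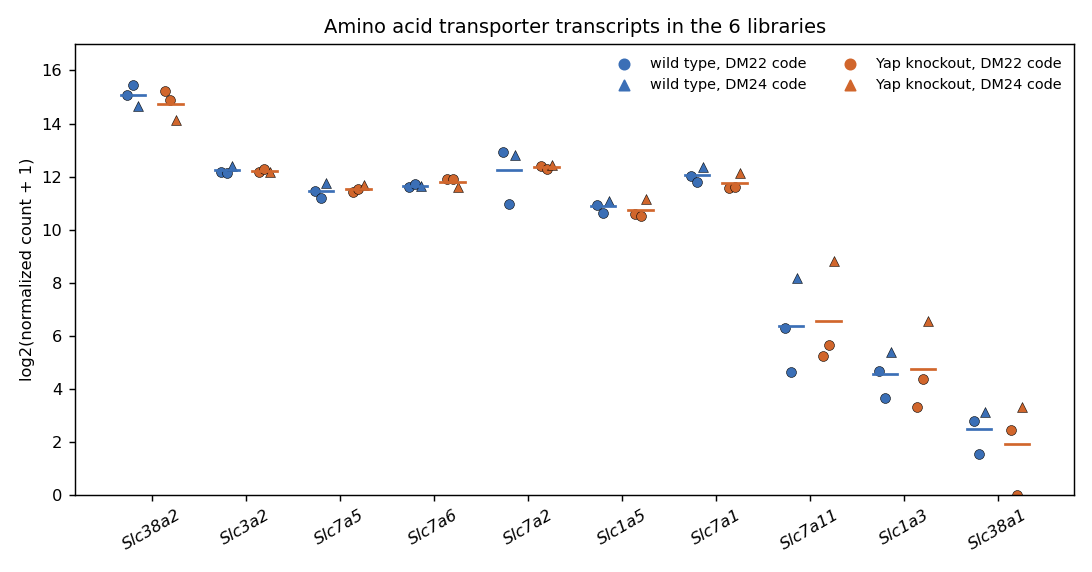
Levels of the 10 transporters in the 6 libraries, as log2(normalized count + 1), 1 column of points per genotype. Points are libraries (circles DM22 codes, triangles DM24 codes) and horizontal lines are the means of 3 libraries. The genotypes overlap for every gene, while the triangles of Slc7a11 (286 and 454 normalized counts) stand above its circles (23.9 to 76.5).

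None of the 9 tested members was called between knockout and wild type by limma (0 of 9, with an adjusted p of at least 0.971 for each). The background was also 0% (0 of 13671 genes at an adjusted p under 0.05, and 5.55% at an unadjusted p under 0.05). EdgeR called 0 of 9 members against a background of 0%, with 5.57% of genes at an unadjusted p under 0.05. DESeq2 called 0 of 9 with no further term (background 0.49%), with the replicate number as a block (1.24%) and with the label code as a term (2.17%). With no further term, Yap1 itself (log2 -2.63) was not called by limma (adjusted p = 0.517) or edgeR (0.670). DESeq2 called it (adjusted p = 1.4e-07). The absence of a limma or edgeR call therefore does not exclude a large difference. No member separated the genotypes without overlap (0 of 9, against a background of 11%). The median log2 difference, knockout minus wild type on the log2(normalized count + 1) scale, was 0.06 over the 9 members, with 5 above and 4 below zero. Over all 13671 genes tested it was -0.0034. The members' median turned to -0.01 by DESeq2 and by edgeR and to -0.25 by limma without wild-type library 2, so it gives no direction. These results limit the differences only as far as the intervals below do.

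The heavy chain Slc3a2 (ENSMUSG00000010095.13, chr19:8706882-8723369, minus strand, GRCm38) had the narrowest interval of the members. It was measured at 4626, 4545 and 5334 normalized counts in wild type and at 4670, 5029 and 4660 in knockout. Every knockout value lay inside the wild-type range. The means were 4835 ± 434 and 4786 ± 210 (SD, n = 3), a log2 difference of -0.01 (SE 0.09). The 95% interval of the fold ran from 0.858 to 1.15.

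Slc7a5 encodes LAT1, the light chain that imports leucine and other large neutral amino acids (ENSMUSG00000040010.10, chr8:121881150-121907694, minus strand). It was measured at 2837, 2311 and 3490 in wild type and at 2702, 2935 and 3281 in knockout. The knockout values again lay inside the wild-type range, and the highest library of each genotype was the DM24 one. The means were 2879 ± 590 and 2973 ± 291 (SD, n = 3), with a log2 difference of 0.06 (SE 0.16) and a fold interval of 0.796 to 1.37. By replicate number the pairs differed by -0.07, 0.34 and -0.09 (log2).

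Slc7a6, the y+LAT2 light chain that exchanges cationic for neutral amino acids (ENSMUSG00000031904.5, chr8:106168857-106198706, plus strand), was measured at 3085, 3390 and 3235 in wild type and at 3809, 3874 and 3138 in knockout. The DM22 knockout libraries exceeded all wild-type libraries and the DM24 knockout library did not. The log2 difference was 0.15 (SE 0.10, 95% interval -0.09 to 0.39). In the 4 DM22 libraries alone it was 0.25 (0.05 to 0.45), with a limma adjusted p of 0.365. The limma interaction of genotype and label code was -0.29 with an adjusted p of 0.867.

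The light chains together stayed within 1.08 to 1.32 times their heavy chain in every library. Slc7a5, Slc7a6, Slc7a7, Slc7a8, Slc7a10 and Slc7a11 can all pair with Slc3a2, and their summed per-kb level over that of Slc3a2 was 1.14, 1.08 and 1.20 in wild type and 1.22, 1.19 and 1.32 in knockout. The means were 1.14 ± 0.0574 and 1.24 ± 0.0683 (SD, n = 3), and the groups overlapped. Slc7a5 and Slc7a6 made up nearly all of it, at 44.7% to 52.0% and 39.1% to 53.2%. Slc7a8 held 0.316% to 6.94% and Slc7a7 0.781% to 1.62%. Slc7a10 had 0 reads in all 6 libraries, which allows up to 2.47 to 3.90 normalized counts per library.

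**Figure D2:**
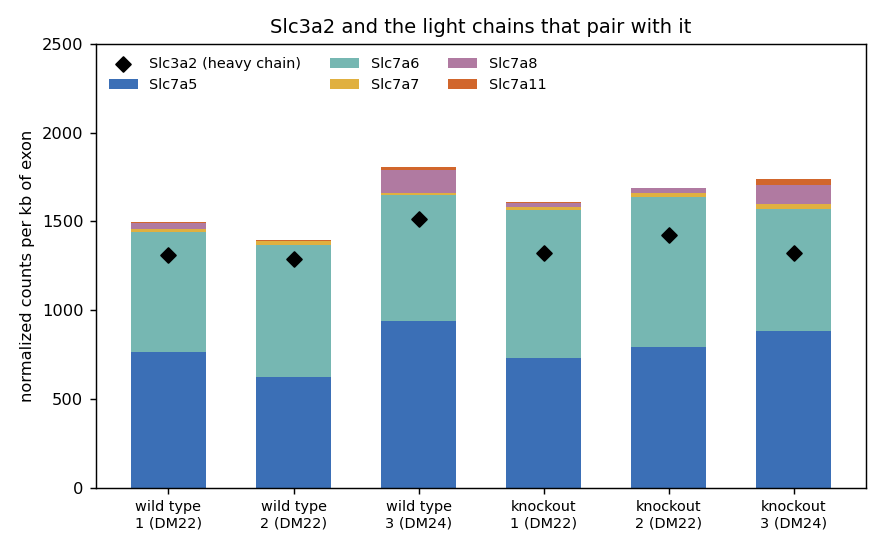
Stacked bars give the light chains that can pair with Slc3a2 and diamonds give Slc3a2, each as normalized counts per kb of exon in 1 library. Slc7a5 and Slc7a6 fill nearly the whole bar in all 6 libraries, and the Slc7a8 and Slc7a11 segments are widest in the libraries with DM24 codes.

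Slc1a5 encodes ASCT2, an exchanger that takes up glutamine (ENSMUSG00000001918.17, chr7:16781340-16798274, plus strand). It stood at 1949, 1579 and 2171 in wild type and at 1554, 1458 and 2272 in knockout. The 2 highest values were the DM24 libraries, one of each genotype, and the genotypes overlapped. The means were 1900 ± 299 and 1762 ± 445 (SD, n = 3), a log2 difference of -0.13 (SE 0.20, 95% interval -0.61 to 0.36).

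Slc38a1 and Slc38a2 encode SNAT1 and SNAT2, sodium-coupled importers of small neutral amino acids, and lie beside each other on chromosome 15 (chr15:96571418-96642913 and chr15:96687392-96699730, both minus strand). Slc38a1 (ENSMUSG00000023169.15), one of the reported YAP targets, had 7, 2 and 6 reads in wild type and 5, 0 and 7 in knockout. Its mean was under 10 normalized counts, so it was not tested, and a difference was not detectable at this depth. Slc38a2 (ENSMUSG00000022462.7) had the 26th highest mean of all genes in the table. It stood at 34757, 44992 and 25755 normalized counts in wild type and at 38041, 30599 and 17865 in knockout. The genotypes overlapped, and the lowest library of each was the DM24 one. The means were 35168 ± 9625 and 28835 ± 10203 (SD, n = 3), a log2 difference of -0.32 (SE 0.33, 95% interval -1.11 to 0.48).

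Slc7a1 and Slc7a2 encode CAT1 and CAT2, importers of arginine, lysine and ornithine. Slc7a1 (ENSMUSG00000041313.14, chr5:148327410-148399904, minus strand) stood at 4200, 3512 and 5195 in wild type and at 3070, 3084 and 4522 in knockout. It was the only member whose 3 replicate pairs differed in the same direction (-0.45, -0.19 and -0.20 on the log2 scale), as 32.6% of all tested genes did. With knockout libraries 1 and 2 exchanged in these pairs, Slc38a2 would also be lower in all 3. The means of Slc7a1 were 4302 ± 846 and 3558 ± 834 (SD, n = 3), a log2 difference of -0.28 (SE 0.21, 95% interval -0.78 to 0.22). In the 4 DM22 libraries alone it was -0.32 (-0.59 to -0.05), with a limma adjusted p of 0.380. The DESeq2 adjusted p was 0.453 with the replicate block and 0.171 with the label code as a term. Without wild-type library 2 the latter fit gave -0.34 with an adjusted p of 0.0497, in a setting that called 3.64% of genes.

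Slc7a2 (ENSMUSG00000031596.15, chr8:40862396-40922308, plus strand) varied most among the abundant members, with 1 low library. It stood at 7694, 2015 and 7179 in wild type and at 5457, 4980 and 5518 in knockout. Wild-type library 2 was the lowest of all 6 and the other wild-type libraries were the highest, so the knockout values lay between them. The log2 difference was 0.14 (SE 0.51, 95% interval -1.09 to 1.38). With that library left out it turned to -0.48, which DESeq2 called at an adjusted p of 0.000187 (background 1.63%) and limma did not (0.342). Slc38a4, an importer of cationic and neutral amino acids that was not among the members, was lowest in the same library, at 3177 against 5536 to 10166 in the others. Slc38a4 was named after its values were seen. Of the Slc7a2 exon bases, 635 (6.95%) overlap the antisense gene Gm26584, and the library kit does not mark strand.

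Slc7a11 and Slc1a3 were low. Slc7a11 encodes xCT, the light chain that exchanges cystine for glutamate (ENSMUSG00000027737.10, chr3:49892526-50443614, minus strand). It stood at 76.5, 23.9 and 286 in wild type and at 36.6, 48.6 and 454 in knockout. The DM24 libraries were the highest of each genotype by a wide margin. The log2 difference between genotypes, 0.20 (SE 1.24), had an interval of -2.79 to 3.20. Slc1a3, which encodes the glutamate and aspartate transporter GLAST (ENSMUSG00000005360.14, chr15:8634124-8710764, minus strand), stood at 24.4, 11.5 and 40.3 in wild type and at 8.92, 19.8 and 93.6 in knockout. Its DM24 libraries were again the highest. The log2 difference was 0.19 (SE 0.90, 95% interval -1.99 to 2.38).

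**Figure D3:**
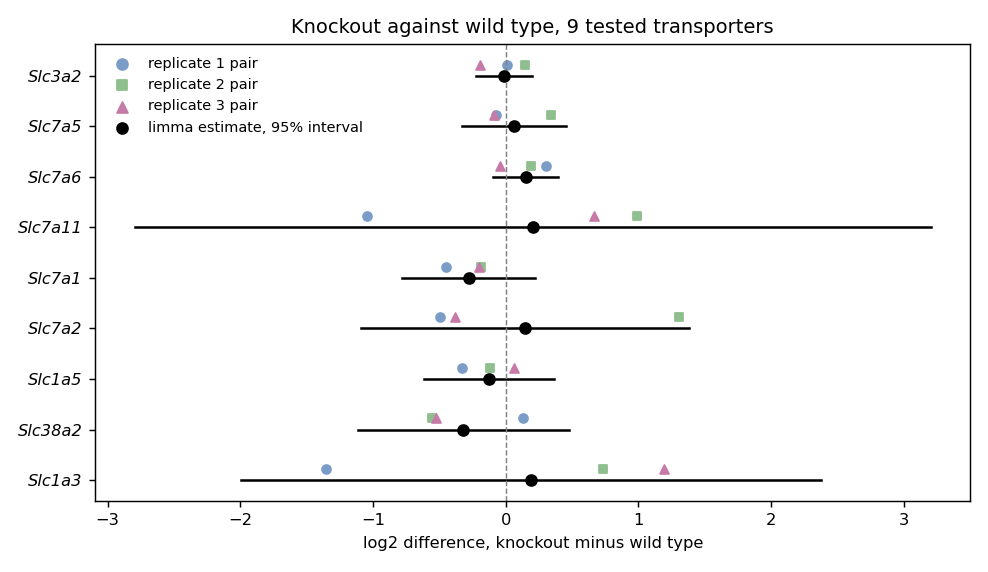
Knockout minus wild type, as a log2 difference, for the 9 tested members. Black points are limma estimates with 95% intervals and coloured marks are the differences within the 3 replicate numbers. All 9 intervals cross zero, from the narrow one of Slc3a2 (-0.22 to 0.20) to that of Slc7a11 (-2.79 to 3.20).

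More members passed the test by label code than by genotype. With genotype held, limma called Slc7a11 and Slc7a1 higher and Slc38a2 lower in the DM24 than in the DM22 libraries (3 of 9, against a background of 6.75% of genes, 2.68% higher and 4.07% lower). Slc7a11 was 8.30-fold higher (log2 3.05, SE 0.48, adjusted p = 0.0300) and Slc7a1 1.41-fold higher (log2 0.50, SE 0.09, adjusted p = 0.0352). Slc38a2 was 1.71-fold lower (log2 -0.78, SE 0.15, adjusted p = 0.0435). These 3 calls were lost when wild-type library 3 or any knockout library was left out. The adjusted p then ran from 0.0940 to 0.274, and from 39 to 119 genes were called in all. Without wild-type library 1 the same 3 members stayed called, and Slc1a5 (adjusted p = 0.0219) and Slc1a3 (0.0485) were called as well, among 1493 genes. Without wild-type library 2 the 3 stayed called among 1334 genes. Where a fit has 1 DM24 library, it is assumed to vary like the others. With all 6 libraries Slc1a5 (log2 0.45, adjusted p = 0.0667), Slc1a3 (1.97, 0.0805) and Slc7a5 (0.33, 0.106) did not pass, and their DM24 libraries still lay above all their DM22 libraries. Without overlap between the codes were 6 of the 9 tested members, against 39.2% of all tested genes. The interaction of genotype and code was called for no member by limma (background 0%) or DESeq2 (0.249%).

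**Figure D4:**
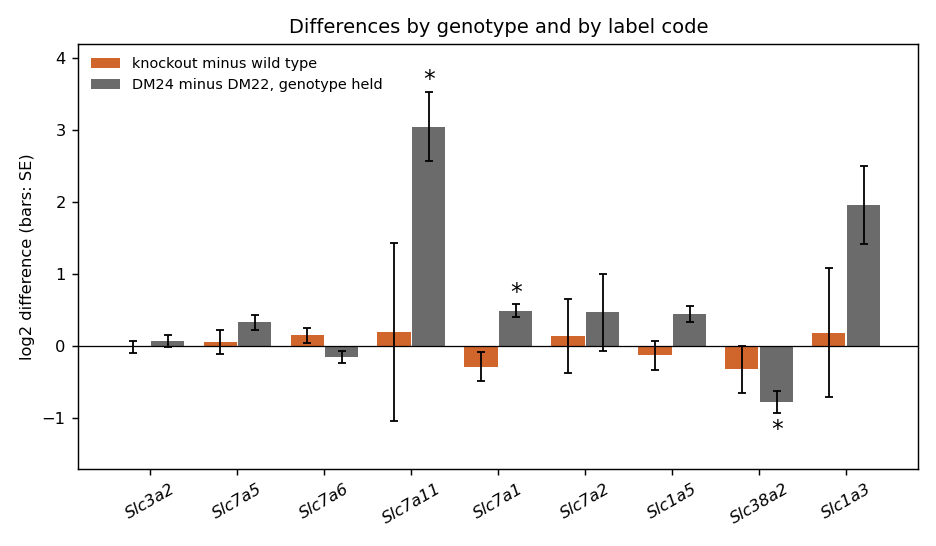
Limma log2 differences of the 9 tested members by genotype (orange, knockout minus wild type) and by label code with genotype held (grey, DM24 minus DM22). Error bars are standard errors and asterisks mark an adjusted p under 0.05. Asterisks stand on the grey bars of Slc7a11 (3.05), Slc7a1 (0.50) and Slc38a2 (-0.78) and on no orange bar.

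Other lists differed by label code, and the handling list given first also held DESeq2 calls by genotype. A list of 18 immediate-early and heat shock genes, which respond to tissue handling (Fos, Jun, Egr1, Atf3, Hspa1a and others), summed to 505719 to 841980 normalized counts in the DM22 libraries and to 146956 to 306442 in the DM24 libraries. By genotype it summed to 306442 to 841980 in wild type and 146956 to 566149 in knockout. All 18 of these genes had log2 differences below zero by genotype (median -0.66), against 6967 of 13671 tested genes. Limma called 0 of them by genotype, and DESeq2 0 without a term. With the replicate block DESeq2 called 7 lower (background of lower calls 0.819%), and with the label code 8 (1.42%). Among these called genes Hspa8, Egr1, Jun and Klf6 had the largest limma differences by genotype. By label code with genotype held, limma called 12 of the 18 lower in DM24 (background 4.07%). The 5 suprabasal keratinocyte markers summed to 15619 to 24368 in DM22 and 33929 to 89262 in DM24. Their median log2 difference, DM24 minus DM22, was 1.03, and limma called 0 of them. For the 6 basal keratinocyte markers this median was -0.41, with 1 called lower (background 4.07%). The 6 fibroblast markers summed to 5402 to 9427 in DM22 and 1612 to 3237 in DM24. That fibroblast sum follows Dcn, and the 5 tested fibroblast markers had a median log2 difference of 1.30, DM24 minus DM22 (1 called, Dcn, lower). Endothelial markers summed to 38.3 to 97.4, myeloid markers to 104 to 649 and melanocyte markers to 124 to 317. The 5 T cell markers summed to 85.8 to 116, nearly all of it Lck (85.8 to 115). Cd3e, Cd3g and Cd2 had no more than 1 read in any library, and Cd3d, a defining marker, was at 0 in all. Their part in the member differences was not tested. In such bulk libraries fewer cells of a type and less RNA per cell cannot be told apart.

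The sequences upstream of the 3 genes that differed by label code are shown with the motifs found in them. RefSeq (GRCm38.p6) had upstream entries for 6 of the 10 members (8 start sites), and none for Slc7a5, Slc1a5, Slc38a1 or Slc7a2. The bases printed run 5′ to 3′ on the gene's strand, within the 250 bases before the RefSeq start and outside annotated exons, at chr15:96699731-96699978 for Slc38a2, chr5:148399905-148400154 for Slc7a1 and chr3:50443615-50443863 for Slc7a11, all on the minus strand. Capitals mark matches to the motifs named below.
Slc38a2: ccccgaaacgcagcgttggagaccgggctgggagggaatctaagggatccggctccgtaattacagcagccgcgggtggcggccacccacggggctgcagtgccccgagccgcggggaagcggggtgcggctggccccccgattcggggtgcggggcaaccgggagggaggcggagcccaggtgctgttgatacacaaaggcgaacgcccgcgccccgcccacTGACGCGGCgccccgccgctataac
Slc7a1: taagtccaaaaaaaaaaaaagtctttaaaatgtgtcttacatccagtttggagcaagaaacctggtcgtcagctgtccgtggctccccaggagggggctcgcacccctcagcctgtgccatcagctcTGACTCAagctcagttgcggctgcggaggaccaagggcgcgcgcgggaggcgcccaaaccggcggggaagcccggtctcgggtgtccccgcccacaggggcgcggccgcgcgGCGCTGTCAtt
Slc7a11: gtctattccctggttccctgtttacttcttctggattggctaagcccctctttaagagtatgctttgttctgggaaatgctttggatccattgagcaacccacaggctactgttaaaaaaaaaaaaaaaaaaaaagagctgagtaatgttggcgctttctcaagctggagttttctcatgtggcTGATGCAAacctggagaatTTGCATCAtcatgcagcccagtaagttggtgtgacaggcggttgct

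Both strands of the 250 bases were searched for 4 motifs, and no match overlapped another in the members' windows. The amino acid response element that ATF4 binds (searched as TGATGNAA) matched only in the Slc7a11 window, 2 times, starting 66 and 47 bases before the start. It is found in 3.45% of all 32851 windows of this length. The AP-1 site (TGANTCA, 6.75% of windows) matched only for Slc7a1, 123 bases before the start. The antioxidant response core (TGACNNNGC, 10.2%) matched for Slc38a2, Slc7a1 and 1 window of Slc7a6. The TEAD site (GGAATG, 12.6%) matched in 0 of the 8 windows. Slc7a5 and Slc38a1, the members named above as reported YAP targets, had no window and were not searched. These matches are letters in a window, not measured sites.

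The remaining amino acid transporters had a median close to that of the members. Of 45 listed, 26 were tested, with 18 above and 8 below zero. Over all 13671 tested genes 6704 were above and 6967 below. The median log2 difference of the 26 was 0.07, against 0.06 for the members and -0.0034 for all tested genes. Limma called 0 (background 0%). DESeq2 called 0 without a term (background of higher calls 0.168%), 1 higher with the block (0.417%) and 3 higher with the label code (0.753%). Slc43a2, the LAT4 transporter of branched-chain amino acids, stood at 624, 451 and 744 in wild type and at 900, 1060 and 1133 in knockout. Its log2 difference was 0.79 (SE 0.20). The DESeq2 adjusted p was 0.0755 when no term was used, 0.00954 under the block and 0.000983 under the label code. Leaving out knockout library 2 ended the last call (0.162).

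Slc6a17, a transporter of neutral amino acids into vesicles, stood at 37.0, 49.8 and 59.8 in wild type and at 82.9, 97.3 and 159 in knockout. The log2 difference was 1.16 (SE 0.32), and DESeq2 called it with the label code alone (adjusted p = 0.00589), a call kept in 1 of 6 fits that left out a library, the one without wild-type library 2. Slc38a9, the lysosomal arginine sensor of mTORC1, differed by 0.38 (SE 0.10), with DESeq2 adjusted p-values of 0.247, 0.328 and 0.0343 in those designs. Its call was lost whichever library was left out. For these 3 genes, and for Slc38a7 (0.18, SE 0.09), the genotypes did not overlap, which makes 4 of 26 against the background of 11%.

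The list of genes controlled by ATF4, the factor that responds to amino acid shortage, held 22 tested genes, 7 above and 15 below zero, with a median of -0.10. By replicate number the medians were -0.29, -0.01 and -0.01. DESeq2 called 1 lower without a term (background of lower calls 0.322%), 1 with the block (0.819%) and 3 with the label code (1.42%). Nupr1, a stress-induced chromatin protein, fell from 331, 352 and 333 to 145, 173 and 183 by DESeq2. Its log2 difference was -1.02 (SE 0.13), with DESeq2 adjusted p-values of 1.2e-06, 0.000791 and 1.7e-06, and limma did not call it (0.429). Nupr1 stayed called by DESeq2 in 6 of 6 fits that left out a library, with no term and with the label code.

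Chac1, which degrades glutathione, stood at 139, 121 and 71.5 in wild type and at 29.4, 61.8 and 37.9 in knockout, without overlap. DESeq2 called it with the label code alone (log2 -1.35 by limma, SE 0.38, DESeq2 adjusted p = 0.0385). That DESeq2 fit also called Ddit4, an inhibitor of mTORC1 (log2 -0.24, SE 0.07, adjusted p = 0.0481). Limma without a term gave Ddit4 -0.24 with an SE of 0.45. With the label code both calls were lost whichever library was left out. Without a term DESeq2 called Chac1 when wild-type library 3 was left out (adjusted p = 0.0208), in a fit that called 235 genes. Asns, the asparagine synthetase and a standard reader of this response, stood at 1432, 1351 and 1624 in wild type and at 1437, 1404 and 1813 in knockout. It was named after its values were seen.

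**Figure D5:**
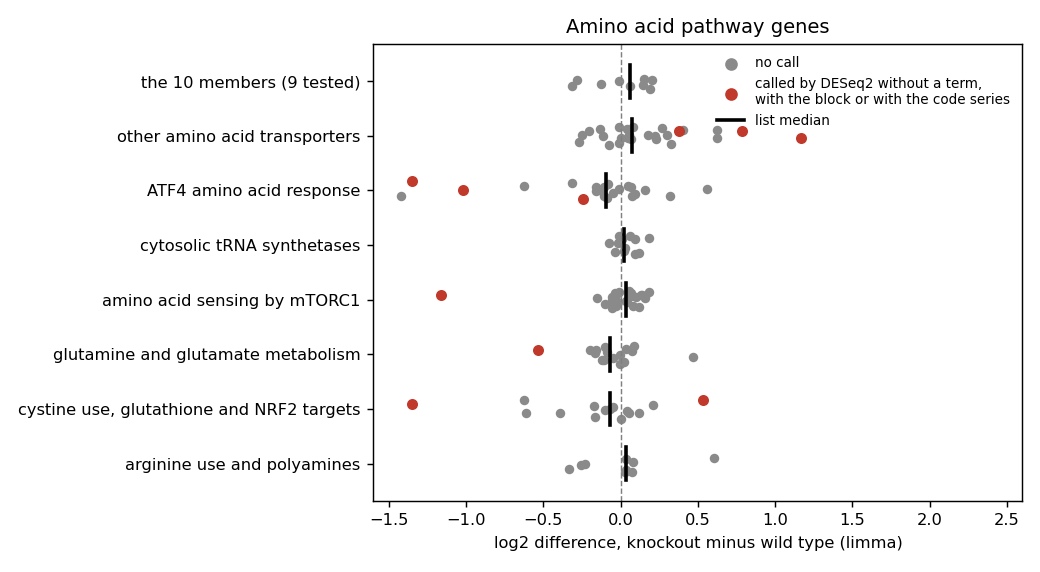
Limma log2 differences, knockout minus wild type, of the tested genes of each pathway list. Each point is a gene, red where any of the 3 DESeq2 designs called it, and black bars are list medians. The medians lie between -0.10 and 0.07, and the members' points lie between -0.32 and 0.20.

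In the lists downstream of uptake limma called no gene (background 0%), and DESeq2 called the genes named here. The background of its lower calls was 0.322% without a term, 0.819% under the block and 1.42% under the label code. Among 25 tested genes of amino acid sensing by mTORC1 (13 above and 12 below zero, median 0.03), DESeq2 called Rragd, a Rag GTPase that recruits mTORC1 to lysosomes, lower with the block and with the label code. Rragd stood at 407, 264 and 121 in wild type and at 150, 172 and 44.3 in knockout. Its log2 difference was -1.16, with an SE of 0.65 by limma without a term and 0.26 by DESeq2 with the label code. Its DESeq2 adjusted p-values were 0.874, 0.0172 and 0.00143, and 4 of 6 fits with the label code that left out a library lost the call. The genotypes overlapped, since wild-type library 3 was below both DM22 knockout libraries.

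Among 16 genes of glutamine and glutamate metabolism (5 above and 11 below zero, median -0.07), DESeq2 called 1 lower in each of the 3 designs (background 0.322%, 0.819% and 1.42%). This was Oat, which converts ornithine to glutamate semialdehyde. It stood at 1993, 1921 and 2113 in wild type and at 1265, 1310 and 1607 in knockout, without overlap, with a log2 difference of -0.53 (SE 0.11). The DESeq2 adjusted p-values were 0.0241, 0.00382 and 5.1e-06. The call without a term held in 2 of 6 fits that left out a library, and the call with the label code in 6 of 6.

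Of 15 tested genes of cystine use, glutathione and NRF2 (6 above and 9 below zero, median -0.07), DESeq2 called Chac1 lower and Nqo1, a quinone reductase and NRF2 target, higher, both with the label code alone (background 1.42% lower and 0.753% higher). Nqo1 stood at 442, 375 and 446 in wild type and at 518, 655 and 660 in knockout, with a log2 difference of 0.53 (SE 0.13, DESeq2 adjusted p = 0.0383). With the label code its call was lost whichever library was left out. Without a term DESeq2 called Nqo1 when knockout library 1 was left out (adjusted p = 0.0159), in a fit that called 53 genes. No cytosolic tRNA synthetase was called by limma or by DESeq2 (0 of 12, median 0.02). The same held for the genes of arginine use and polyamines (0 of 9, median 0.03), of which Arg2, the mitochondrial arginase, had the largest difference (0.60, SE 0.16, DESeq2 adjusted p = 0.236 with the label code).

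The genes whose levels followed Slc7a5 and Slc3a2 most closely were sought among 12367 tested genes with a name. For Slc7a5 these were Tbl3 (Pearson r 0.994), Ankk1 (0.992) and Eri3 (0.991), and for Slc3a2 they were Sds (0.974), Elmo1 (0.968) and Fance (0.966). Each r is over the same 6 libraries, which share genotypes, codes and depth, and is a description of these libraries.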

How the data were processed

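RNA of 6 libraries was sequenced. According to the protocols in the labels, RNA came from RNeasy Plus columns and libraries from a TruSeq kit that leaves strand unmarked. The submitters' processing notes name STAR 2.5, DESeq2 1.18.1 and GRCm38. No counting tool or annotation was named in the sources used here. The growth protocol mentions more than one sampling time, and the stage label of every sample gives 6 weeks. Separate animals were not stated, so the p-values reflect only the spread among these libraries, which may be technical.

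The authors deposited a signal, namely read counts divided by 1 size factor per library. Within a library all values (100%) came out as whole multiples of 1 step, to a tolerance of 0.001 reads, so reads were recovered. Where 0 reads were seen, up to 3 reads remain possible by counting error alone, or 2.47 to 3.90 normalized counts.

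Genes averaging at least 10 normalized counts (13671) were tested with limma 3.58.1 (R 4.3.3, trend and robust) on the log2(normalized count + 1) scale, two-sided, 3 knockout against 3 wild-type libraries, with Benjamini-Hochberg adjustment at 0.05. This scale understates changes of low genes. EdgeR 4.0.16 and DESeq2 1.42.0 on the recovered reads were alternatives, as were the replicate number as a block and the label code (DM22 or DM24) as a term. An exact permutation test of 3 against 3 cannot go below 0.1, so none was run. The fits were also run on simulated counts with a single dispersion and no label code effect. That simulation does not show how they perform on these libraries.

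Libraries with the same replicate number deviated together (correlations of 0.333, 0.327 and 0.694, each above 0.1), and the numbers were taken to pair them. Combinations of a DM22 with a DM24 library gave -0.632 to -0.383. The correlations thus followed the label code and do not show pairing within a code. Every other combination of a wild-type and a knockout DM22 library also exceeded 0.1 (0.26 and 0.505). The check therefore cannot tell pairs 1 and 2 from the exchanged pairs. A higher correlation (0.505) joined knockout library 1 to wild-type library 2, and the pairing rests on the numbers in the labels.

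The members and the 17 other lists were chosen with earlier results of these data known. Of 210 listed genes 209 were in the table, 7 by another symbol. Genes were named as all members, up to 4 called genes per pathway list or otherwise up to 2 with the largest difference, and the 3 genes closest to Slc7a5 and to Slc3a2. Outside this rule, Slc38a4, Slc38a7, Asns, Slc1a1, Slc6a14 and Slc43a1 were named after their values were seen. Coordinates and exon lengths (all annotated exons merged) are from GENCODE M21, 1-based. Added after the data were seen were the fits of the label code difference and of its interaction with genotype, DESeq2 in the DM22 libraries alone, and the leave-one-out fits with the label code.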

Additional observations from a re-analysis of the deposited data

How the results depend on the processing

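Limma called 0 genes over all 6 libraries, 2 in the DM22 libraries alone and 0 to 1 when a library was left out. DESeq2 called 67 genes without a term, 169 with the replicate block, 297 with the label code as a term and 265 in the DM22 libraries alone. Leaving out a library gave 23 to 235 genes by DESeq2 without a term and 85 to 498 with the label code. Members were called in DESeq2 fits without wild-type library 2 only, 1 without a term (Slc7a2) and 2 with the label code (Slc7a1 and Slc7a2), so calls over these fits ran from 0 to 2. The replicate block, which rests on the numbers in the labels, changed no member call (0 of 9 in limma, edgeR and DESeq2). The median over the members ran from -0.252 (limma without wild-type library 2) to 0.151 (limma without wild-type library 3), with -0.207 by DESeq2 in the DM22 libraries alone. Slc38a2, Slc7a1 and Slc7a6 kept their direction in every alternative run. Slc1a3 could not be tested at a mean of at least 50.

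Directions turned for 6 members. With quantile normalization Slc3a2 was at 0.0369. Slc7a2 was at -0.0789 by DESeq2, -0.0812 by edgeR, -0.0532 by DESeq2 with the label code and -0.0555 by edgeR with it. In the DM22 libraries alone, limma and DESeq2 gave -0.31 and -0.316 for Slc1a3, 0.0796 and 0.089 for Slc3a2 and -0.0259 and -0.235 for Slc7a11. Leaving out 1 library in turn (limma, and DESeq2 without and with the label code) gave -0.807 to 1.18 for Slc1a3, -0.331 to 0.0132 for Slc1a5, -0.0655 to 0.0864 for Slc3a2, -1.59 to 1.85 for Slc7a11, -0.484 to 0.595 for Slc7a2 and -0.0865 to 0.215 for Slc7a5. Among the listed genes, Ddit4 ranged from -0.652 to 0.132 and Arg1 from -0.587 to 0.0934. The cause of these turns was not tested. Depth limits Slc38a1, with at most 7 reads per library, and Slc1a3, with 10 to 74.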

Other observations

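Of the 26 tested transporters outside the members, limma with genotype held called 2 higher (background 2.68%) and 1 lower (4.07%) in the DM24 libraries. These were named after their values were seen. Slc1a1, a transporter of glutamate, aspartate and cysteine, stood at 29.7 to 68.4 normalized counts in the DM22 libraries and at 133 and 346 in the DM24 libraries (log2 2.27, SE 0.45, adjusted p = 0.0441). Slc6a14, a broad neutral and cationic amino acid importer, was also higher (1.02, SE 0.15, adjusted p = 0.0243). Slc43a1, the LAT3 transporter of branched-chain amino acids, was lower, at 466 to 688 in DM22 and 134 and 150 in DM24 (-1.94, SE 0.16, adjusted p = 0.00645). The light chain Slc7a8 did not pass (2.74, SE 0.79, adjusted p = 0.0930). Its DM24 libraries stood at 628 and 541 and its DM22 libraries at no more than 161.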
